A study of Mus musculus with 23 samples.

Results

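The core of Polycomb repressive complex 2 (PRC2) is formed by Ezh2, Ezh1, Eed, Suz12, Rbbp4 and Rbbp7, and the 6 genes were followed by name among the 32285 genes listed in each of 11 single-cell gene-expression libraries. All 6 were present in every library. They were taken by name as the known core subunits, with earlier results of these data known. The libraries hold mouse bone marrow cells sorted as c-Kit-positive, Sca1-positive and lineage-negative (KSL), a gate that is rich in blood stem cells and early progenitors. The series has 23 samples in all, and its 6 CUT&Tag samples were not analysed here.

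Every group carries Mx1-Cre, a Cre recombinase driven by an interferon-responsive promoter, according to the labels, and Control is no exception. Ezh2 KO mice carry floxed Ezh2 (Ezh2fl/fl) and Jarid2 KO mice carry floxed Jarid2 (Jarid2fl/fl). The sources used here do not give the alleles of the Control mice, the deleted exons or the way Cre was induced. The baseline experiment has 2 libraries of each genotype, 1 male and 1 female, from untransplanted mice 2 months old. The transplant experiment has 1 Control, 2 Ezh2 KO and 2 Jarid2 KO libraries of CD45.2 donor cells, recovered 18 weeks after lethally irradiated recipients had received 500000 donor cells mixed with 500000 CD45.1 competitor cells. Neither the sex of the transplanted donors nor the number of animals in a library is labelled, so the p-values measure the spread between these libraries only.

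PRC2 places methyl groups on lysine 27 of histone H3, a mark of silenced genes. Ezh2 and its paralog Ezh1 are the alternative catalytic subunits, Suz12 is the scaffold, Eed reads the finished mark and stimulates the enzyme, and Rbbp4 and Rbbp7 are histone-binding proteins shared with other chromatin complexes. Ezh2 is known for its link to dividing cells and Ezh1 for its presence in resting cells, and both have been studied as regulators of blood stem cells and lymphocyte precursors.

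Promoter windows of 4 members are shown: those of Ezh2, Suz12 and Rbbp4, which hold a match to an E2F-type motif, and that of the catalytic paralog Ezh1, which holds none. E2F factors are known regulators of cell-cycle genes. In the cell-cycle comparison described further on, Eed and Rbbp7 also rose, and their windows, which hold none of the motifs, are not printed. Each window holds 250 bases before and 50 bases after a RefSeq transcript start (GRCm38.p6), 5′ to 3′. Capitals mark matches to 4 E2F-type motifs, searched on both strands. The first motif was TTCGCGC and the next was TTGGCGC. A further motif was TTCCCGC and the last was TTGGCGG.
Ezh2, chr6:47594981-47595280, minus strand: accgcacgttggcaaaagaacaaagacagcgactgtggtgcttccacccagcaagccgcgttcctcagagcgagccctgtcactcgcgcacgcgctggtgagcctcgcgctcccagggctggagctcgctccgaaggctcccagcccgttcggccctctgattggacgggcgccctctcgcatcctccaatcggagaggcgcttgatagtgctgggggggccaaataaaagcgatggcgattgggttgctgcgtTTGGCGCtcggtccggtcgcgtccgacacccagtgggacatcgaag
Suz12, chr11:79992856-79993155, plus strand: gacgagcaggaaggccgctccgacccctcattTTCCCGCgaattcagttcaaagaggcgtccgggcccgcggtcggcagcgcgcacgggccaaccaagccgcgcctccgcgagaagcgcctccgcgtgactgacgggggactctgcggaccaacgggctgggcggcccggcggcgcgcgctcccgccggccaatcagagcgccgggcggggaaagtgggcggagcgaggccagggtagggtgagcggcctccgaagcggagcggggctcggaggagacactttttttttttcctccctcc
Rbbp4, chr4:129335321-129335620, minus strand: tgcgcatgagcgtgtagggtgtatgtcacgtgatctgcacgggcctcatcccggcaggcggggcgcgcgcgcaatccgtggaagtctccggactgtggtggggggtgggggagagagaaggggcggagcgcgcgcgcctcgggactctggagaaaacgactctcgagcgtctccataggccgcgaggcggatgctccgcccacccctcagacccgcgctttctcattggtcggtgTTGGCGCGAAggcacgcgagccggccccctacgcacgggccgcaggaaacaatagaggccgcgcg
Ezh1, chr11:101226414-101226713, minus strand: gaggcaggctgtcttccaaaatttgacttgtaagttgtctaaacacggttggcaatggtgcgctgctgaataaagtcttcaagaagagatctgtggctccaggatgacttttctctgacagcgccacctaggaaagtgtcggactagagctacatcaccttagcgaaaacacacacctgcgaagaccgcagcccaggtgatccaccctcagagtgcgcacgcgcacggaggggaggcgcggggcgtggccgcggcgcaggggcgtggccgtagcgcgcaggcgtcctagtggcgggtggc
The Ezh2 window holds TTGGCGC from transcript base 5, and the start used lies inside the annotated gene, whose outer end is at 47595270. The Suz12 window holds TTCCCGC from 218 bases before the start. The Rbbp4 window holds TTGGCGC from 15 bases before the start, overlapping TTCGCGC on the opposite strand. The Ezh1, Eed and Rbbp7 windows hold none of the 4 motifs in these letters. At least 1 of the 4 motifs occurs in 3361 of 32851 mouse promoter windows of the same length (10.2%). G and C bases made up a median of 52.7% of those windows. They made up 64.3%, 71% and 68.7% of the Ezh2, Suz12 and Rbbp4 windows, and 59.3%, 54.7% and 75.7% of the Ezh1, Eed and Rbbp7 windows. The part of base content in the matches was not tested. A match is a description of letters and not a binding site.

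After filters on cell quality and removal of likely doublets, 73310 of 97066 deposited barcodes were kept, with 6723 to 9208 cells per baseline library and 4354 to 6149 per transplant library. After transplantation the quality filter alone passed 4663 of 8283 barcodes in Control, 6638 of 9205 and 6321 of 8977 in Ezh2 KO, and 5448 of 8689 and 5415 of 8842 in Jarid2 KO. The share passed there thus differed by genotype and was lowest in Control. In baseline Control it passed 7162 of 7656 and 8451 of 8903. Kept cells held 83025072 to 125337734 unique molecular identifiers (UMIs, each counting 1 captured transcript end) per baseline library and 65363222 to 107983391 per transplant library. At this depth Ezh1, the scarcest member, was read from 1103 to 3093 UMIs per library. Levels are in CPM, the UMIs of a gene per 1000000 UMIs of the library. Kit (124 to 292 CPM), Ly6a, which encodes Sca1 (19.7 to 74.0 CPM), and Ptprc, which encodes CD45 (141 to 221 CPM), were read in every library, while the T cell gene Cd3e stayed at or below 0.28 CPM and the neutrophil gene Ly6g at or below 0.0241 CPM. Itgam, which encodes the myeloid surface protein CD11b, was read at 6.19 to 25.03 CPM. Libraries of the same experiment shared 9 to 37 barcodes per pair, at most 0.373% of the smaller library. Female-type cells, those that held Xist but lacked Y-linked transcripts, were 59.4% of cells in transplant Control. Jarid2 KO held 48.2% and 49.5% of such cells, and Ezh2 KO only 0.0163% and 0.0511%, so sex and genotype are mixed there. Levels of the members are not compared between experiments, because the file headers name different Cell Ranger versions for them.

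The targeted genes were read first. Kits of this type count the 3′ ends of transcripts, and an end that lies outside the deleted exons does not check the deletion. Jarid2, the co-factor deleted in the other knockout, read 159 and 149 CPM in baseline Control, 133 and 141 CPM in Ezh2 KO, and 215 and 203 CPM in the libraries labelled Jarid2 KO. After transplantation it read 38.0 CPM in Control, 41.3 and 45.4 CPM in Ezh2 KO, and 56.7 and 56.7 CPM in the libraries labelled Jarid2 KO. The libraries labelled Jarid2 KO therefore held the most Jarid2 ends in both experiments, and every direction given for them below rests on the label alone.

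Ezh2 transcript ends fell steeply in Ezh2 KO cells after transplantation. In untransplanted mice they were lower in both Ezh2 KO libraries without passing the test over all cells. At baseline Ezh2 read 209 CPM in the male and 193 CPM in the female Control library, 162 and 147 CPM in Ezh2 KO, and 189.6 and 197 CPM in Jarid2 KO. Both Ezh2 KO libraries lay below both Control libraries, and the Jarid2 KO libraries overlapped Control. The baseline difference between Ezh2 KO and Control was -0.34 on the log2 scale (SE 0.07, 95% interval -0.51 to -0.17, edgeR quasi-likelihood test, adjusted p = 0.0626), short of the 0.05 threshold that calls a gene here. DESeq2 called the same difference (-0.34, adjusted p = 0.000517), as did edgeR without either Jarid2 KO library (adjusted p = 0.0497 and 0.0477). It did not pass with any 1 Control or Ezh2 KO library left out (edgeR adjusted p 0.105 to 0.233) or without the sex term (edgeR adjusted p = 0.138). In that comparison 3.00% of 18142 tested genes were called and 0 of the 6 members were.

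After transplantation Ezh2 read 181 CPM in the single Control library, 38.6 and 46.4 CPM in Ezh2 KO, and 168 and 183 CPM in Jarid2 KO. The Ezh2 KO libraries stood far below the other 3, which overlapped. The difference between Ezh2 KO and Control was -2.18 (SE 0.13, 95% interval -2.49 to -1.86, edgeR adjusted p = 0.00109), in a comparison that called 4.55% of 15735 genes, and Ezh2 was the only member called. With the single Control library, the spread came from the 2 knockout groups. Male cells alone gave -2.14 (edgeR adjusted p = 0.00224).

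The Ezh2 difference itself differed between the experiments. The transplant difference minus the baseline difference was -1.84 for Ezh2 KO against Control (SE 0.14, 95% interval -2.16 to -1.53, edgeR adjusted p = 0.00333), where 0.233% of 18856 genes were called. The file headers name different Cell Ranger versions for the experiments, so what was counted as an Ezh2 UMI may differ between them. The mix of cells may differ too. A list of 10 Myeloid marker genes summed to 495 to 845 CPM in baseline Control and 10984 CPM in transplant Control. A list of 15 stem cell marker genes summed to 1906 to 1916 CPM and to 312 CPM. The part of the version or of the cell mix in the difference was not tested. For Jarid2 KO against Ezh2 KO the transplant minus baseline value was 1.78 (SE 0.13, edgeR adjusted p = 0.000792), where 2.23% were called. No other member passed either edgeR test. For Rbbp4 the Jarid2 KO against Ezh2 KO value was 0.37 (edgeR adjusted p = 0.0875), and DESeq2 called it (0.39, adjusted p = 0.00965).

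**Figure D1:**
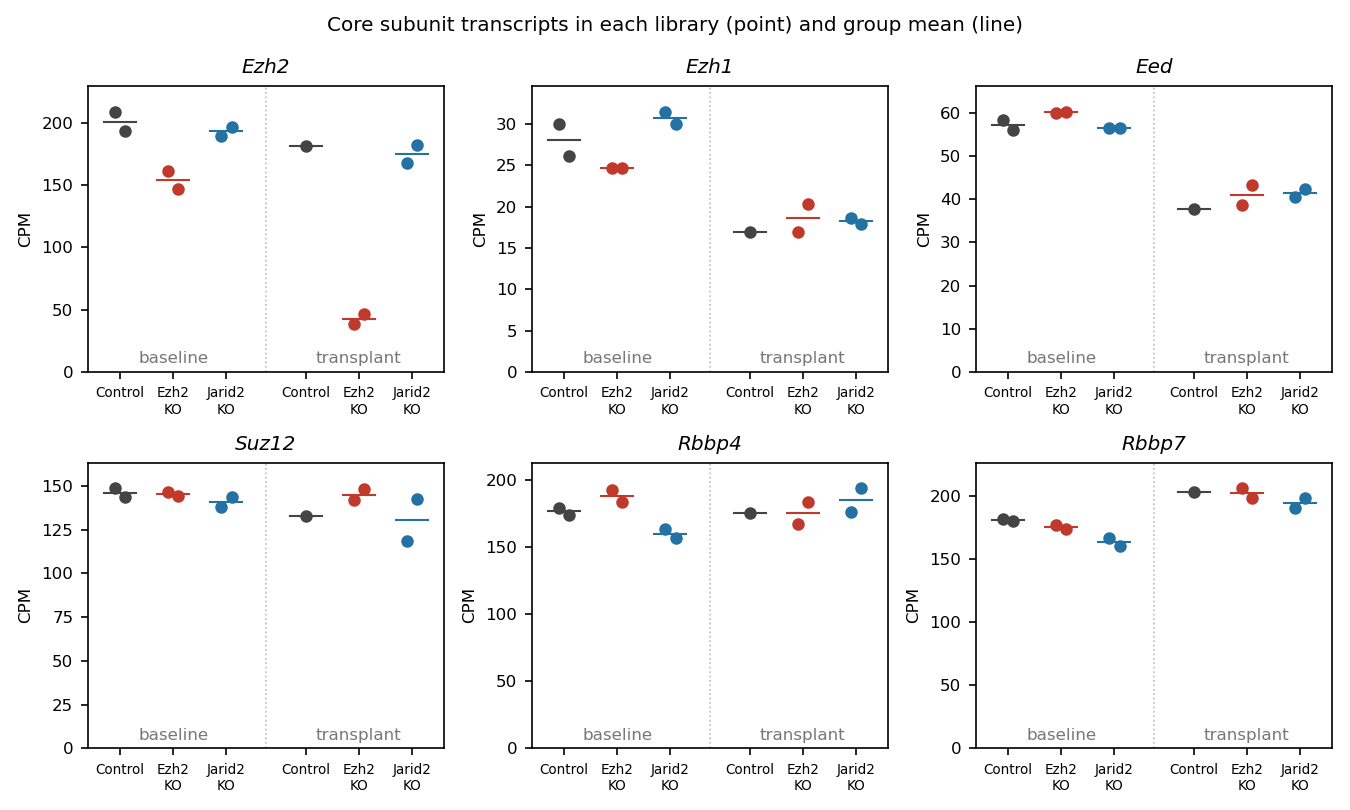
Level of each of the 6 members in CPM (vertical axes) in every library, as 1 point per library, by genotype, with baseline and transplant libraries apart. Ezh2 sits at 38.6 and 46.4 CPM in the transplant Ezh2 KO libraries against 181 CPM in Control, and the other 5 members stay near their Control levels.

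Ezh1, the paralog of Ezh2, showed no called rise in either Ezh2 KO comparison. At baseline Ezh1 read 30.0 and 26.2 CPM in Control, 24.7 and 24.7 CPM in Ezh2 KO, and 31.5 and 30.0 CPM in Jarid2 KO. The Ezh2 KO libraries were the lowest of the 6. The difference from Control was -0.14 (SE 0.05, 95% interval -0.28 to 0.00, edgeR adjusted p = 0.217). It was -0.21 without the female Control library, -0.0663 without the male Control library and -0.092 without the male Ezh2 KO library.

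After transplantation Ezh1 read 16.9 CPM in Control, 17.0 and 20.3 CPM in Ezh2 KO, and 18.7 and 18.0 CPM in Jarid2 KO. These values lie close together, and Ezh2 KO differed from Control by 0.06 (SE 0.14, 95% interval -0.29 to 0.41, edgeR adjusted p = 0.9). The interval reaches up to 0.41 on the log2 scale, so a larger rise over all cells lies outside it and a smaller one within it. The smallest rise that could be called with 1 Control library was not tested. The sign turned to -0.04 without the second Ezh2 KO library.

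The balance between the paralogs was read as a share. The part of gene length in the share was not tested. Ezh1 made up 12.6% and 11.9% of the Ezh1 plus Ezh2 UMIs in baseline Control. The Ezh2 KO values were 13.2% and 14.4%, and those of Jarid2 KO were 14.2% and 13.2%. After transplantation its share was 8.52% in Control (exact binomial 95% interval 8.04% to 9.01%), 30.6% (29.4% to 31.7%) and 30.5% (29.2% to 31.8%) in Ezh2 KO. Jarid2 KO gave 10.0% and 8.95%. At baseline both Ezh2 KO shares lay above both Control shares and overlapped those of Jarid2 KO, while after transplantation they lay above every other library. These intervals cover counting error alone. In transplant stem cell-like cells the share was 27.5% in Control (23.7% to 31.6%), and 60.7% (56.2% to 65.0%) and 53.2% (48.7% to 57.8%) in Ezh2 KO. Ezh1 UMIs thus outnumbered Ezh2 UMIs in both Ezh2 KO libraries, but the interval of the second includes equal shares. In transplant cells of the Cycling-like state it was 6.61% in Control and 19.8% and 18.6% in Ezh2 KO.

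Directly compared at baseline, Ezh1 was higher in Jarid2 KO than in Ezh2 KO by 0.29 (SE 0.05, edgeR adjusted p = 0.0499) and Rbbp4 was lower by -0.26 (SE 0.04, edgeR adjusted p = 0.0404), 2 of the 6 members where 6.05% of genes were called. Neither call held with any 1 library left out: the adjusted p then ran from 0.0501 to 0.261 for Ezh1 and from 0.058 to 0.276 for Rbbp4. Ezh2 in Jarid2 KO lay above Ezh2 KO without overlap, by 0.30 (SE 0.07, 95% interval 0.14 to 0.47), and did not pass (edgeR adjusted p = 0.0629). The Ezh2 difference was called by DESeq2 (adjusted p = 0.00243) and by edgeR with library totals in place of TMM (adjusted p = 0.0499) or no filter on low counts (adjusted p = 0.0471). With the mix of cell states held at the Control shares, the differences were -0.07 for Rbbp4, 0.22 for Ezh1 and 0.55 for Ezh2, with no test. B cell-like cells, in which Rbbp4 is highest among the named states, made up 21.1% and 11.7% of the Ezh2 KO libraries against 2.80% and 3.12% of the Jarid2 KO libraries. Innate lymphoid-like cells made up 0.996% and 0.847% of the Ezh2 KO against 3.44% and 3.89% of the Jarid2 KO libraries. The part of these states in the differences was not tested. After transplantation the same comparison gave 0.01 for Ezh1 and 0.11 for Rbbp4. It called 11.8% of genes, and Ezh2 alone among the members, at 2.08 (SE 0.12, edgeR adjusted p = 0.000441).

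**Figure D2:**
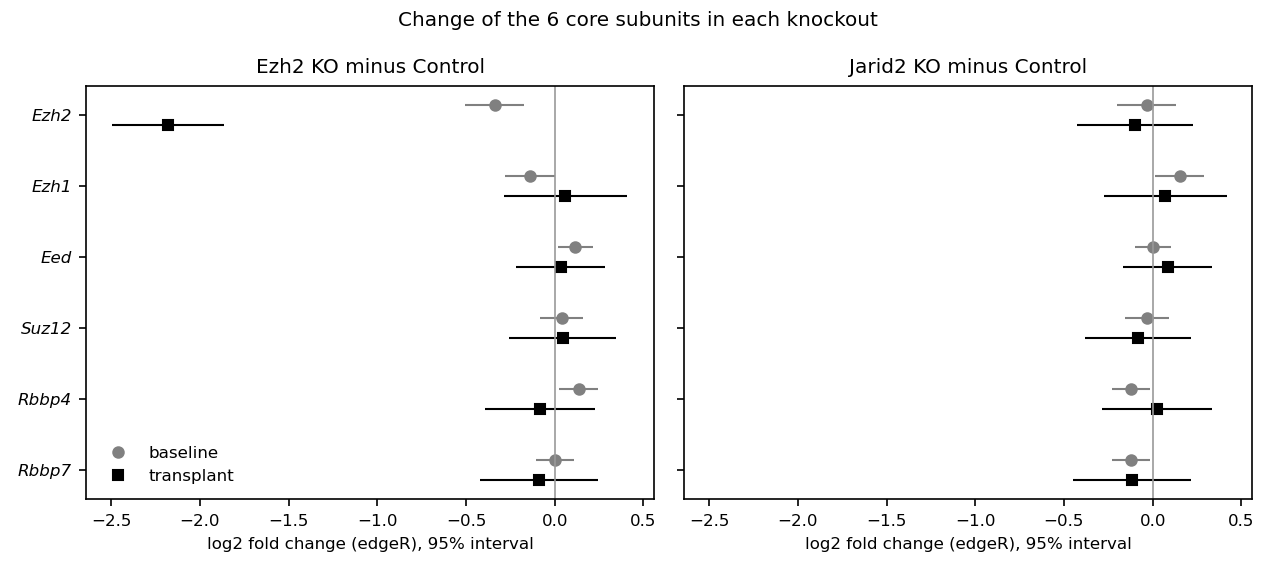
Differences between genotypes for the 6 members on the log2 scale (horizontal axis), each point an edgeR estimate with its 95% interval, by experiment, for each knockout against Control. Ezh2 lies at -2.18 for Ezh2 KO against Control after transplantation and at -0.34 at baseline, and the other 5 members lie between -0.14 and 0.15.

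The reader subunit Eed and the scaffold Suz12 kept levels close to Control in all groups. Eed read 58.4 and 56.2 CPM in baseline Control, 60.1 and 60.3 CPM in Ezh2 KO, and 56.5 and 56.6 CPM in Jarid2 KO. After transplantation it read 37.8 CPM in Control, 38.7 and 43.4 CPM in Ezh2 KO, and 40.5 and 42.5 CPM in Jarid2 KO. The widest spread within a group was in the transplant Ezh2 KO libraries. Ezh2 KO differed from Control by 0.12 at baseline (95% interval 0.02 to 0.21, edgeR adjusted p = 0.168) and by 0.03 after transplantation (95% interval -0.22 to 0.28, edgeR adjusted p = 0.922).

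Suz12, without which the complex does not assemble, read 149 and 144 CPM in baseline Control, 147 and 144 CPM in Ezh2 KO, and 138 and 144 CPM in Jarid2 KO. After transplantation it read 133 CPM in Control, 142 and 148 CPM in Ezh2 KO, and 118 and 142 CPM in Jarid2 KO. At baseline both knockouts overlapped Control while the Jarid2 KO values lay below those of Ezh2 KO, and the first transplant Jarid2 KO library was the lowest of all. The Ezh2 KO difference was 0.04 at baseline (95% interval -0.08 to 0.16, edgeR adjusted p = 0.679) and 0.05 after transplantation (95% interval -0.26 to 0.35, edgeR adjusted p = 0.912).

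Neither gene of the histone-binding pair was called against Control. Rbbp4 read 179 and 174 CPM in baseline Control, 193 and 183 CPM in Ezh2 KO, and 163 and 156 CPM in Jarid2 KO, so the 3 genotypes did not overlap. After transplantation it read 175 CPM in Control, 167 and 184 CPM in Ezh2 KO, and 176 and 193 CPM in Jarid2 KO. Ezh2 KO overlapped the other groups, and both Jarid2 KO values lay above the single Control value. Rbbp4 in Ezh2 KO differed from Control by 0.13 at baseline (95% interval 0.03 to 0.24, edgeR adjusted p = 0.152) and by -0.08 after transplantation (95% interval -0.39 to 0.23, edgeR adjusted p = 0.833).

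Rbbp7, the X-linked member of the pair, read 181 and 180.0 CPM in baseline Control, 177 and 173 CPM in Ezh2 KO, and 167 and 160.5 CPM in Jarid2 KO. After transplantation it read 203 CPM in Control, 206 and 198 CPM in Ezh2 KO, and 190.6 and 198 CPM in Jarid2 KO. Jarid2 KO was lowest at baseline without passing the test, at -0.12 against Control (95% interval -0.23 to -0.02, edgeR adjusted p = 0.385). Against Control, Jarid2 KO called 0 of the 6 members in either experiment, where 0.0276% of genes at baseline and 0.299% after transplantation were called.

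Within Control marrow the members differed widely between cell states. States are clusters of Control cells, found without the 6 genes and named "-like" from marker genes, and cells of other libraries took the state of their nearest Control cells. Unnamed clusters are left out of the orders given here. Among the named states at baseline, Ezh2 was highest in B cell-like cells (male 597 and female 625 CPM). Cycling-like cells (308 and 309 CPM), Erythroid-like cells (265 and 266 CPM) and Megakaryocyte-like cells (228 and 229 CPM) followed. The Dendritic-like cells (121 and 156 CPM), Lymphoid-primed-like cells (91.9 and 91.4 CPM), Innate lymphoid-like cells (75.6 and 86.1 CPM) and HSC-like cells (74.6 and 64.1 CPM) came last. HSC stands for hematopoietic stem cell. Adjacent states did not overlap in this order, although the lower Innate lymphoid-like value and the higher HSC-like value (75.6 and 74.6 CPM) lay closer together than the libraries of either state. The Myeloid-like state had enough cells in the female Control library only, at 224 CPM.

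Ezh1 followed a different order. It read 42.4 and 44.6 CPM in Lymphoid-primed-like, 40.4 and 39.5 CPM in HSC-like, and 26.6 and 22.7 CPM in Cycling-like cells of baseline Control. It was lower in B cell-like (14.3 and 18.6 CPM) and Megakaryocyte-like cells (15.2 and 15.6 CPM). The Erythroid-like values (25 and 14.7 CPM) overlapped those of Cycling-like, Dendritic-like, B cell-like and Megakaryocyte-like cells, and the Innate lymphoid-like values of 59.7 and 24.6 CPM came from 73 and 43 cells and span most of the order.

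Among the named states, Eed, Suz12 and Rbbp4 were also highest in B cell-like cells, and the Rbbp7 values of Cycling-like and B cell-like cells overlapped. In the same Control libraries Rbbp4 ran from 119 and 115 CPM in HSC-like to 356 and 363 CPM in B cell-like cells. Suz12 ran from 103 and 97.6 CPM to 249 and 231 CPM, Rbbp7 from 133 and 140.5 CPM to 231 and 211 CPM (206 and 212 CPM in Cycling-like cells), and Eed from 45.9 and 43.9 CPM to 82.2 and 81.4 CPM. The HSC-like cells were not always the lowest, since Dendritic-like cells held less Rbbp4, at 93.2 and 92.2 CPM, and Innate lymphoid-like cells held less Rbbp7, at 111 and 117 CPM.

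In the transplant Control library, which has no replicate, Ezh2 read 254 CPM in Cycling-like, 175 CPM in Basophil or mast-like, 152 CPM in Myeloid-like and 77.7 CPM in HSC-like cells. Both Jarid2 KO libraries kept this order. Ezh1 read 29.5 CPM in HSC-like, 18.0 CPM in Cycling-like, 15.4 CPM in Basophil or mast-like and 7.50 CPM in Myeloid-like cells of the same Control library. Among these named states Myeloid-like was thus the lowest for Ezh1 but not for Ezh2, and unnamed clusters are left out of both orders.

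**Figure D3:**
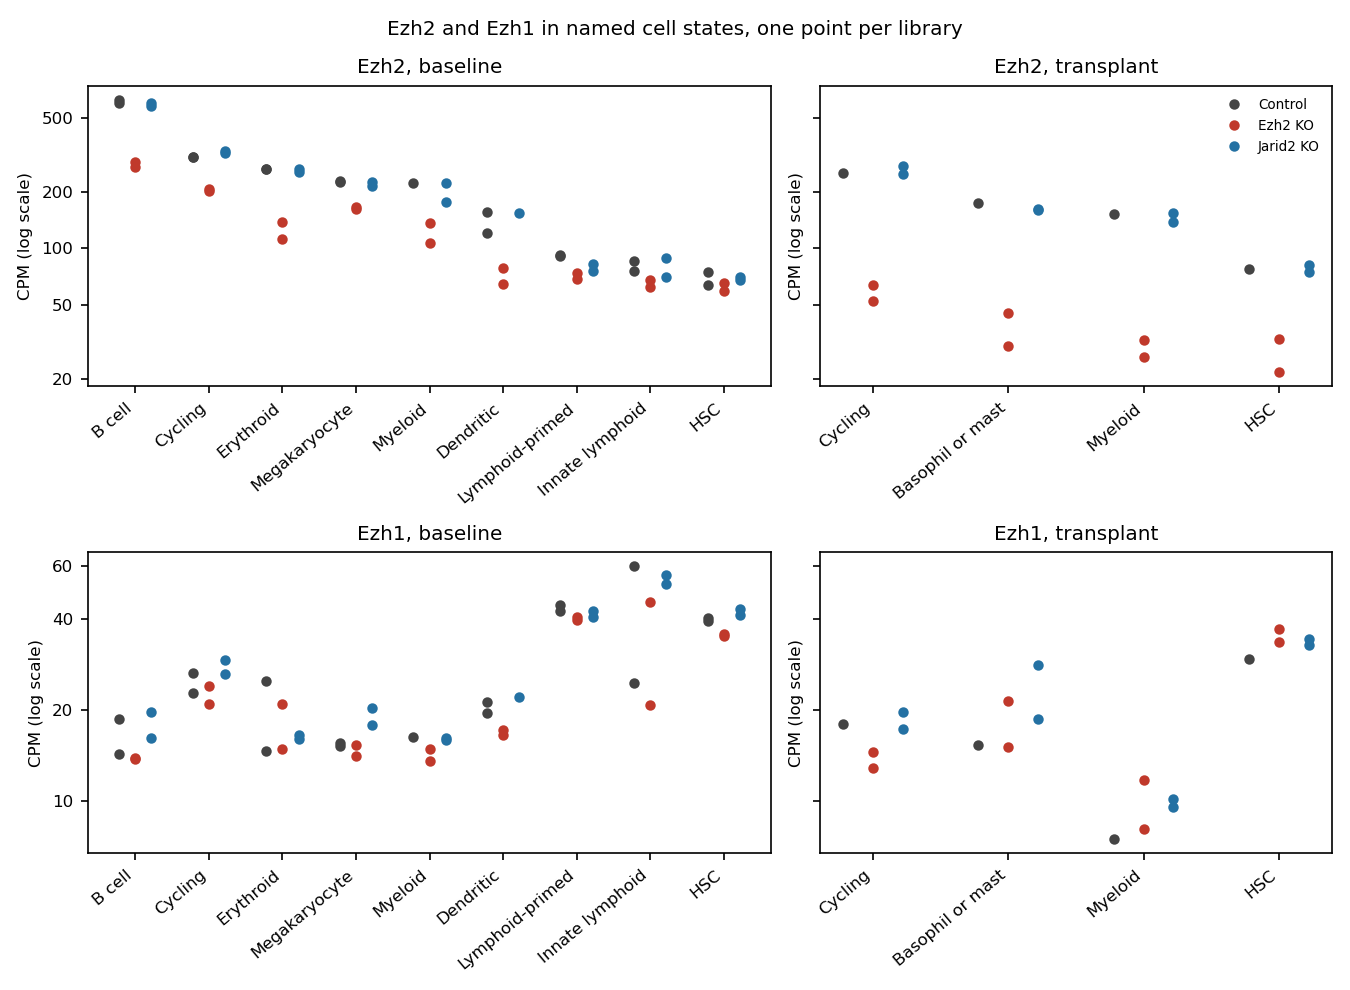
Ezh2 and Ezh1 levels in CPM (vertical axes, log scale) in the named cell states, with 1 point per library and genotypes by colour, for both experiments. In baseline Control, Ezh2 is highest in B cell-like cells (597 and 625 CPM) while Ezh1 is higher in Lymphoid-primed-like and HSC-like cells than in B cell-like cells.

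Ordering cells by cell-cycle genes set the catalytic paralogs apart in both experiments. Cells of each library were split into terciles by the share of their UMIs from 93 Cycling list genes, none of which is a member, and the list's genes move with the cut by construction. Because the cut was made within each library, it fell at different values between genotypes. At baseline the upper cut lay at 58.5 and 61.2 of these UMIs per 10000 in Control, at 84.5 and 66.3 in Ezh2 KO and at 49.0 and 51.6 in Jarid2 KO. After transplantation the lower cut lay at 64.1 in Control, at 49.1 and 51.7 in Ezh2 KO and at 54.8 and 57.3 in Jarid2 KO. Differences between genotypes are therefore also given with cuts fixed at the values of the pooled Control cells, a test that was added after the within-library values had been seen. From the lowest to the highest tercile, Ezh2 in baseline Control went from 67.2 and 62.8 CPM to 342 and 306 CPM. Ezh1 went from 40.5 and 38.2 CPM to 21.6 and 17.6 CPM. No library overlapped between these terciles for either gene.

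Over all 6 baseline libraries, with library as a block, Ezh2 rose by 2.33 (95% interval 2.15 to 2.51), Suz12 by 1.24, Rbbp4 by 1.20, Rbbp7 by 1.05 and Eed by 0.73. Ezh1 fell by 0.82 (95% interval -0.93 to -0.70). The edgeR adjusted p ran from 7.27e-10 to 2.15e-07. Over the 5 transplant libraries Ezh2 rose by 1.38 (95% interval 1.22 to 1.53), Suz12 by 0.98, Rbbp7 by 0.85, Rbbp4 by 0.76 and Eed by 0.54, and Ezh1 fell by 0.77 (95% interval -0.95 to -0.59). All 6 members were called in both experiments, but so were 76.2% of baseline and 71.1% of transplant genes, so the calls alone say little about the members. By direction, 36.7% of baseline genes were called higher and 39.5% lower in the highest tercile, and 35.6% each way after transplantation. Terciles are ranges and not cell types.

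**Figure D4:**
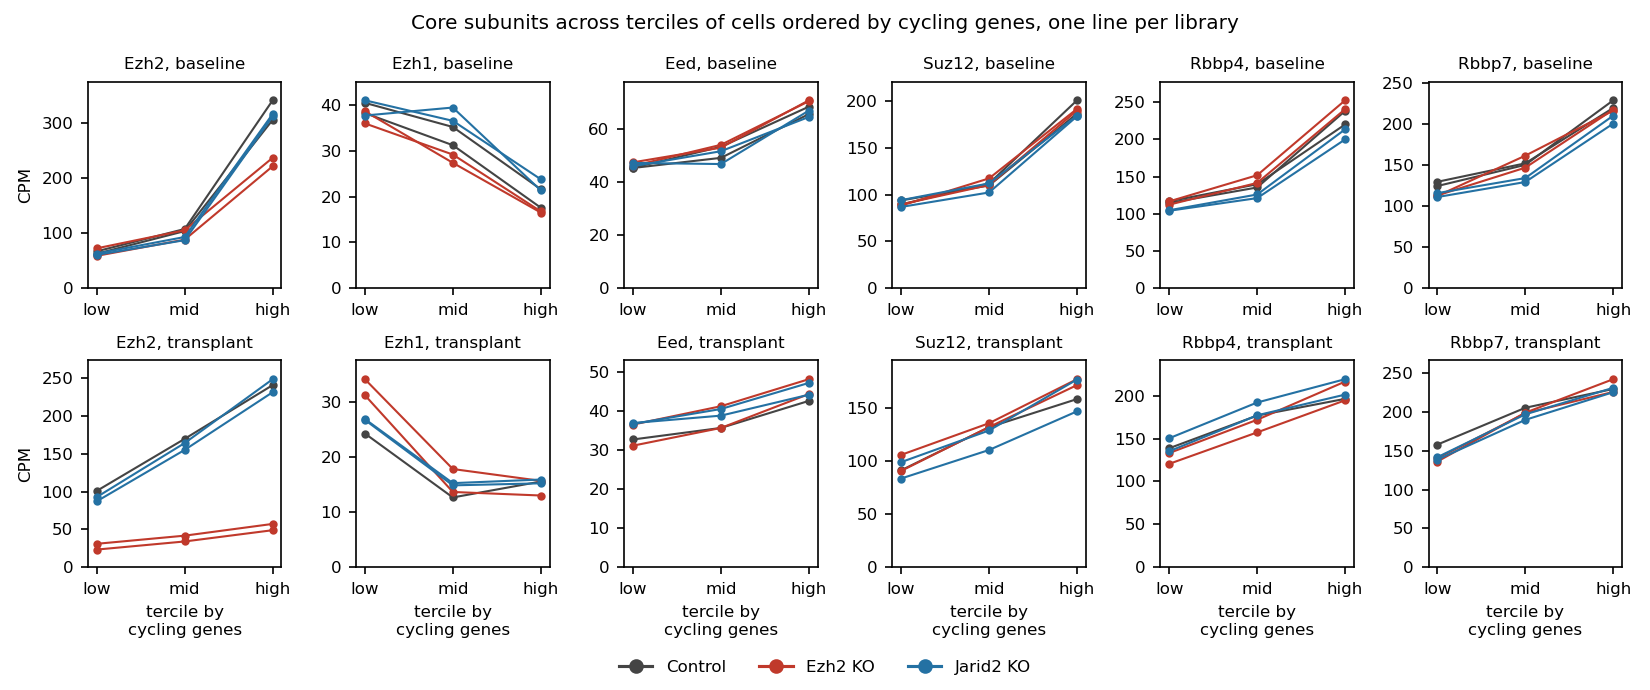
Level of each member in CPM (vertical axes, linear scale from 0) in the lowest, middle and highest tercile of cells by cell-cycle gene share, with 1 line per library. Ezh2 lines climb and Ezh1 lines descend in both experiments, and the transplant Ezh2 KO lines for Ezh2 run below the others in all terciles.

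Surface antibodies, read in the same baseline cells, gave a division made without any transcript. The stem gate took cells high in CD150 and low in CD48 and CD135, a known stem cell profile, and 3 further gates took multipotent progenitors (MPP2, MPP3 and MPP4, the last lymphoid-biased and high in CD135). The gates were cut at each library's own antibody values, so they can fall at different values between genotypes. MPP2 took 3.32% and 4.87% of Control, 9.10% and 6.03% of Ezh2 KO, and 3.04% and 4.70% of Jarid2 KO cells. Genotype differences within gates are given with these cuts only. Ezh2 in Control read 125 and 136 CPM in the stem gate, 312 and 278 CPM in MPP2, 307 and 247 CPM in MPP3, and 199 and 186 CPM in MPP4. The stem gate was lowest in each of the 6 libraries. Over these libraries the stem gate was lower in Ezh2 by -1.19 against MPP2, -1.13 against MPP3 and -0.60 against MPP4 (edgeR adjusted p from 5.06e-11 to 2.36e-07).

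Ezh1 in Control read 36.6 and 29.6 CPM in the stem gate, 21.7 and 11.6 CPM in MPP2, 22.1 and 23.2 CPM in MPP3, and 32.4 and 29.6 CPM in MPP4. The stem gate was higher in Ezh1 by 0.79 against MPP2 (edgeR adjusted p = 1.27e-05) and by 0.47 against MPP3 (edgeR adjusted p = 0.00143). Against MPP4 the difference was 0.05 (95% interval -0.16 to 0.27, edgeR adjusted p = 0.693). Eed, Suz12, Rbbp4 and Rbbp7 were lower in the stem gate in all 3 comparisons, from -0.20 for Rbbp7 against MPP2 to -0.68 for Rbbp4 against MPP3. These comparisons called 61.8%, 59.2% and 50.8% of genes, so most genes separated the gates.

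The Ezh2 difference of Ezh2 KO cells at baseline was large in some states and small in others. In B cell-like cells Ezh2 read 597 and 625 CPM in Control against 290.3 and 273 CPM in Ezh2 KO, a difference of -1.05 (SE 0.09, edgeR adjusted p = 1.48e-06, 9.74% of genes called). In Erythroid-like cells it read 265 and 266 CPM against 139 and 113 CPM, a difference of -1.04 (SE 0.11, edgeR adjusted p = 0.00072, 0.400% called). In HSC-like cells it read 74.6 and 64.1 CPM against 65.1 and 59.5 CPM, and the difference of -0.13 did not pass (95% interval -0.29 to 0.03, edgeR adjusted p = 0.543, 0.251% called). This value was -0.22 without the female and -0.0445 without the male Control library. The HSC-like ranges of Control and Ezh2 KO overlapped, while the other 2 states were cleanly apart.

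Cycling-like cells lay between, at 308 and 309 CPM in Control and 203 and 208 CPM in Ezh2 KO (-0.54, SE 0.05, edgeR adjusted p = 0.00251, 1.65% called). Lymphoid-primed-like cells read 91.9 and 91.4 CPM against 74.0 and 68.5 CPM (-0.33, SE 0.06, edgeR adjusted p = 0.0296, 1.66% called), and this call was lost without either Control library or without the female Ezh2 KO library (edgeR adjusted p 0.103 to 0.193). Megakaryocyte-like cells, at -0.45, did not pass (edgeR adjusted p = 0.0849, 0.120% called). Of 14 baseline states with enough cells, including unnamed ones, all 14 had an estimate below 0 and 6 were called. The called unnamed clusters were 4 (-0.38, 1.30% of genes called) and 6 (-0.47, 1.61% called), while unnamed 7 (-0.28, 0.966% called), 15 (-0.59, 0.107% called), 20 (-0.65, 0.114% called) and 21 (-0.30, 0.489% called) did not pass. The lowest of the 14 estimates, -1.10 in unnamed 22, did not pass either (edgeR adjusted p = 0.293, 0.196% called), and it rests on 22 to 104 cells per library. No state was called for Ezh1 (14 tested), Eed, Suz12, Rbbp4 or Rbbp7.

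Whether these differences differ between states was tested with a state by genotype term, added after the values above had been seen. Against HSC-like cells, the Ezh2 difference was larger in B cell-like cells by -0.89 (95% interval -1.12 to -0.66, edgeR adjusted p = 1.5e-06, 4.13% of genes called). It was larger in Erythroid-like cells by -0.91 (95% interval -1.17 to -0.66, edgeR adjusted p = 9.58e-05, 0.150% called). The Erythroid-like term was -0.70 without the female Control library (edgeR adjusted p = 0.154), and the male Control library holds 44 such cells. The Cycling-like, Lymphoid-primed-like, Megakaryocyte-like and Innate lymphoid-like terms, from -0.41 to -0.19, did not pass (edgeR adjusted p = 1 for each).

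The cell-cycle terciles gave a similar ordering. In the highest baseline tercile Ezh2 read 342 and 306 CPM in Control and 237 and 222 CPM in Ezh2 KO (-0.43, edgeR adjusted p = 0.0337, 5.71% called). In the lowest it read 67.2 and 62.8 CPM in Control and 72.6 and 59.0 CPM in Ezh2 KO (0.05, 95% interval -0.18 to 0.27, edgeR adjusted p = 0.852, 1.03% called). The middle tercile gave -0.0949 and did not pass (edgeR adjusted p = 0.657, 0.479% called). The highest tercile was clearly separated and the lowest overlapped. The highest minus lowest term was -0.45 (95% interval -0.59 to -0.31, edgeR adjusted p = 0.0208, 0.155% called), and it was lost without either Control library or without the male Ezh2 KO library (-0.48 to -0.40, edgeR adjusted p 0.114 to 0.235). With the fixed Control cuts the highest tercile gave -0.48 (edgeR adjusted p = 0.0244, 5.03% called), the middle -0.27 (edgeR adjusted p = 0.09, 1.61% called) and the lowest 0.04 (edgeR adjusted p = 0.879, 0.938% called). The highest minus lowest term was then -0.52 (95% interval -0.67 to -0.36, edgeR adjusted p = 0.0165, 0.108% called). Among the surface gates, MPP4 was called (-0.43, edgeR adjusted p = 0.0137, 1.47% called), and the stem gate at -0.20 (95% interval -0.43 to 0.04, edgeR adjusted p = 0.533, 0.0413% called) was not. MPP2 (-0.31, 17.7% called) and MPP3 (-0.32, 7.00% called) did not pass either. The gate by genotype terms, from -0.22 to -0.09, did not pass.

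The mix of states also differed between genotypes at baseline. B cell-like cells made up 6.49% and 2.15% of the Control, 21.1% and 11.7% of the Ezh2 KO, and 2.80% and 3.12% of the Jarid2 KO libraries. The summed level of the 9 B cell markers was 317 to 1069 CPM in Control, 1641 to 3039 CPM in Ezh2 KO and 447 to 458 CPM in Jarid2 KO, with no marker at 0. Since B cell-like cells hold the most Ezh2 of the named states, the state mix was held at the Control shares over 14 states, which cover 95.1% of Control cells. Ezh2 then read 175 and 175 CPM in Control, 121 and 120 CPM in Ezh2 KO, and 173 and 181 CPM in Jarid2 KO. The Ezh2 KO difference was -0.54 on this scale, with no test, against -0.34 over all cells. The summed level of the 93 Cycling genes was 8132 to 8587 CPM in Control, 9290 to 10554 CPM in Ezh2 KO and 8086 to 8169 CPM in Jarid2 KO, and its part in the members' levels was not tested. In sums over cells, fewer cells of a type and less RNA per cell cannot be told apart.

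The direct comparison of Jarid2 KO with Ezh2 KO was also made within the baseline gates and terciles. In MPP3, Ezh1 read 28.8 and 30.1 CPM in Jarid2 KO, 15.6 and 17.1 CPM in Ezh2 KO, and 22.1 and 23.2 CPM in Control. The 3 genotypes did not overlap, and Jarid2 KO was higher than Ezh2 KO by 0.81 (SE 0.11, edgeR adjusted p = 0.00797, 7.53% of genes called). This call was lost without either Ezh2 KO library or without the male Jarid2 KO library (0.79 to 0.82, edgeR adjusted p 0.0599 to 0.0846). Ezh1 was also called in the middle tercile (0.41, edgeR adjusted p = 0.0443, 4.38% called), and not with the fixed Control cuts (0.25, edgeR adjusted p = 0.122). With 1 library left out the middle tercile value ran from 0.33 to 0.49, and the call was kept in only 3 of 6 fits. It was also lost without the sex term (edgeR adjusted p = 0.0888).

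In MPP3, Rbbp4 read 193 and 193 CPM in Jarid2 KO against 246 and 241 CPM in Ezh2 KO, with Control between at 232 and 204 CPM (-0.38, edgeR adjusted p = 0.0282). It was also called lower in MPP2 (-0.40, edgeR adjusted p = 0.0254, 20.6% called) and in the highest tercile (-0.32, edgeR adjusted p = 0.032, 8.55% called). Rbbp7 was called lower in MPP3 (-0.31, edgeR adjusted p = 0.0477). Each of these calls was lost when either Jarid2 KO library was left out. Those in MPP3 were also lost without either Ezh2 KO library, that in MPP2 without the male Ezh2 KO library and that in the highest tercile without either Control library. All 4 were lost without the sex term. Ezh2 was higher in Jarid2 KO in MPP4, at 206 and 194 CPM against 138 and 142 CPM (0.50, edgeR adjusted p = 0.00476, 3.78% called), which passed with any 1 library left out and was lost without the sex term (edgeR adjusted p = 0.0715). Its call in the highest tercile (0.39, edgeR adjusted p = 0.0333) was lost without either Control or either Jarid2 KO library. Over the states, Ezh2 was called higher in 6 of 14 and the other 5 members in none, where 0.0381% to 10.0% of genes were called.

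After transplantation the Ezh2 difference was large in all 4 named states. Myeloid-like cells read 152 CPM in Control and 26.3 and 32.3 CPM in Ezh2 KO (-2.48, SE 0.15, edgeR adjusted p = 0.000547, 0.797% called). HSC-like cells read 77.7 CPM in Control and 21.7 and 32.6 CPM in Ezh2 KO (-1.59, SE 0.20, edgeR adjusted p = 0.0064, 1.35% called). Both remained well below Control. Cycling-like cells gave -2.18 (3.18% called) and Basophil or mast-like cells -2.30 (0.289% called).

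Of 12 transplant states, 10 were called lower in Ezh2 and all 12 estimates were below 0. Among the 6 called unnamed clusters they ran from -2.52 to -1.71, and those with the most genes called were unnamed 1 (2.44%), 12 (1.37%) and 5 (1.07%). The 2 states not called were unnamed clusters with medians of 1367 and 2307 UMIs per Control cell, the lowest of the 15 clusters. 1 of these 2 gave -0.59, the highest of the 12 estimates. The part of depth in the missing calls was not tested. Ezh1 was called in 0 of 11 states and the other 4 members in none. The Ezh2 difference was larger in Myeloid-like than in HSC-like cells by -0.87 (95% interval -1.14 to -0.60, edgeR adjusted p = 2.74e-07, 3.09% called). It ran from -1.02 to -0.69 with 1 knockout library left out. The Ezh2 KO levels of these states, given above, overlapped, while the single Control library read higher in Myeloid-like than in HSC-like cells. This term therefore rests on that library, which no fit leaves out. The Basophil or mast-like against HSC-like term of -0.72 did not pass (95% interval -1.12 to -0.31, edgeR adjusted p = 0.0758, 0.544% called). The Cycling-like against HSC-like term of -0.57 (edgeR adjusted p = 0.00173, 2.60% called) was -0.40 without the second Ezh2 KO library (edgeR adjusted p = 0.163). All terciles were called, at -2.23 in the highest (3.05% called), -2.26 in the middle (2.05%) and -2.01 in the lowest (6.56%), and the highest minus lowest term of -0.16 did not pass (edgeR adjusted p = 0.153). With the fixed Control cuts this term was -0.33 and passed (95% interval -0.49 to -0.18, edgeR adjusted p = 0.0191, 2.79% called), from -2.23 in the highest and -1.88 in the lowest tercile. With the state mix held at the Control shares, the Ezh2 KO difference was -1.98. States came from Control cells and none was named B cell-like after transplantation. Whether this step holds the share of B-lineage cells was not tested. The B cell markers summed to 46.6 CPM in transplant Control, 438 to 577 CPM in Ezh2 KO and 67.2 to 90.1 CPM in Jarid2 KO. Of the other marker lists, the Lymphoid-primed sum was 407 CPM in Control against 969 to 987 CPM in Ezh2 KO, and the Erythroid sum 289.5 against 434 to 468 CPM. The median edgeR difference over the tested genes was 1.55 for the Lymphoid-primed list and 0.11 for the Erythroid list. Sums of the T cell list (7.24 against 17.7 to 18.7 CPM) and of a list of stress genes (499.5 against 631 to 762 CPM) were also higher in Ezh2 KO. The Dendritic sum was lower, at 625 CPM in Control against 455 to 538 CPM. The Myeloid sum was 10984 CPM in Control, 8435 to 8786 CPM in Ezh2 KO and 13316 to 17438 CPM in Jarid2 KO. Unnamed cluster 12 made up 3.33% of Control cells, 11.999% to 13.9% of Ezh2 KO cells and 4.38% to 5.505% of Jarid2 KO cells. The part of these lists and shares in the Ezh2 values was not tested.

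**Figure D5:**
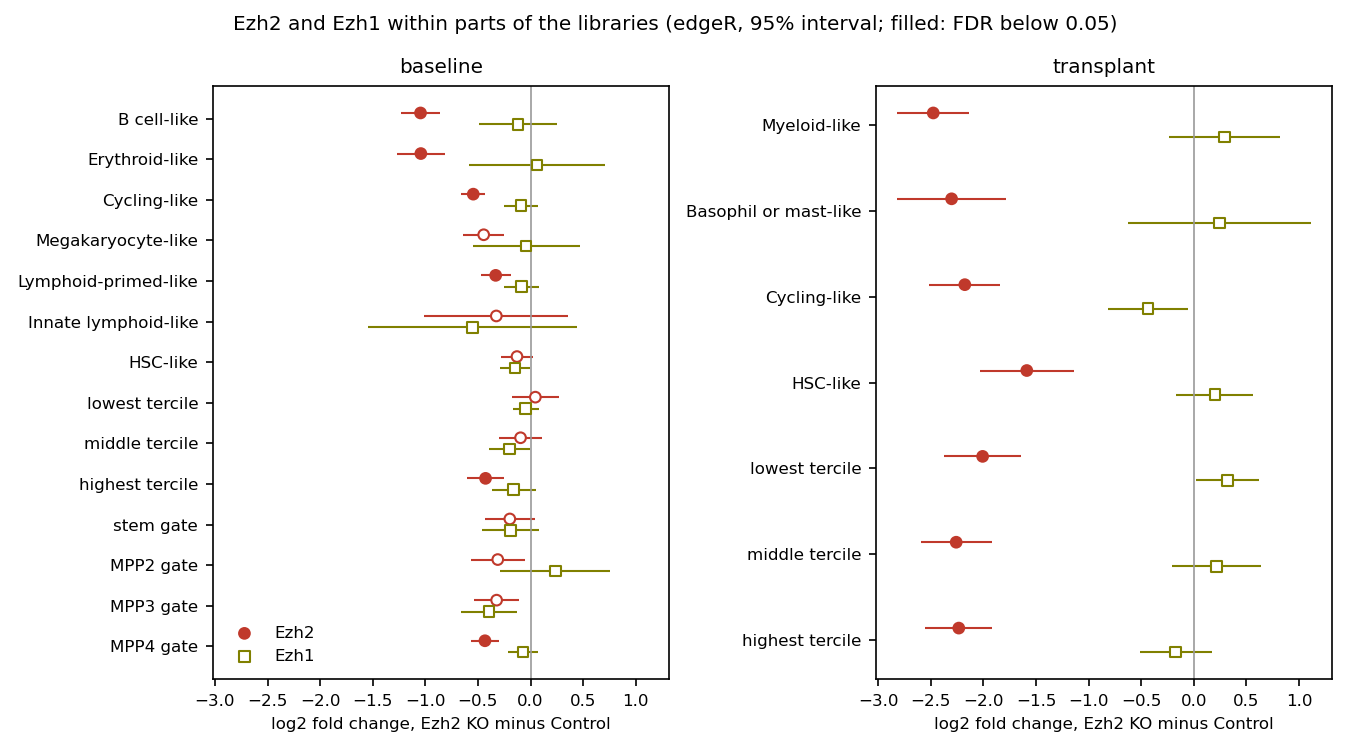
Ezh2 KO against Control for Ezh2 and Ezh1 within named cell states, cell-cycle terciles and surface gates, on the log2 scale (horizontal axis), each point an edgeR estimate with its 95% interval. The plotted baseline Ezh2 estimates, which leave out unnamed clusters, run from -1.05 in B cell-like cells to 0.05 in the lowest tercile, the named transplant states run from -2.48 to -1.59, and no Ezh1 point is filled (filled points passed the test).

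Ezh1 was also compared by cell-cycle tercile after transplantation, and the outcome depended on where the terciles were cut. With cuts made within each library, in the lowest tercile it read 24.3 CPM in Control, 31.3 and 34.2 CPM in Ezh2 KO, and 27 and 26.8 CPM in Jarid2 KO. In the highest it read 15.6 CPM in Control, 13.0 and 15.7 CPM in Ezh2 KO, and 15.9 and 15.3 CPM in Jarid2 KO. The Ezh2 KO libraries were the highest of the 5 in the lowest tercile and overlapped the others in the highest. The lowest tercile difference from Control was 0.32 (95% interval 0.02 to 0.62, edgeR adjusted p = 0.213) and the highest tercile difference was -0.17 (95% interval -0.52 to 0.17, edgeR adjusted p = 0.699), and neither passed.

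The highest minus lowest term for Ezh1 passed at -0.45 (95% interval -0.69 to -0.20, edgeR adjusted p = 0.00755), in a comparison that called 17.4% of genes, and fell short without the first Ezh2 KO library (-0.39, edgeR adjusted p = 0.0597). The same terms for Rbbp4 (0.30, edgeR adjusted p = 0.000132) and Rbbp7 (0.33, edgeR adjusted p = 9.25e-05) passed in the opposite direction. None of the 3 passed with the fixed Control cuts, which gave -0.35 for Ezh1 (95% interval -0.63 to -0.07, edgeR adjusted p = 0.18), 0.15 for Rbbp4 (edgeR adjusted p = 0.21) and 0.15 for Rbbp7 (edgeR adjusted p = 0.254), where 2.79% of genes were called. The lowest tercile then held 27.7 and 30.9 CPM of Ezh1 in Ezh2 KO, 24.3 CPM in Control and 24.9 and 24.9 CPM in Jarid2 KO. The Ezh1 term for Cycling-like against HSC-like cells was -0.62 (edgeR adjusted p = 0.0446) and was lost without either Ezh2 KO library (edgeR adjusted p 0.085 to 0.19). For Jarid2 KO against Control the Ezh1 tercile term was -0.11 (95% interval -0.36 to 0.13, edgeR adjusted p = 0.867, 0.588% called). The baseline Ezh1 terms did not pass.

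Single cells were compared for how their Ezh2 UMIs spread. After each cell was thinned to 5000 UMIs, 84.0% and 80.3% of the Ezh2 KO cells held no Ezh2 UMI, against 46.4% of Control and 49.8% and 46.9% of Jarid2 KO cells. Cells with 3 or more Ezh2 UMIs made up 0.276% and 0.427% of Ezh2 KO cells and 7.21% of Control cells. The variance of the UMIs per cell over their mean was 1.12 and 1.12 in Ezh2 KO, 1.17 in Control, and 1.23 and 1.29 in Jarid2 KO, where counting alone gives a ratio near 1. Where cells differ, this ratio also grows with the mean count, which was lower in Ezh2 KO. The ratios therefore do not rank the groups by how unevenly Ezh2 was spread.

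At baseline 58.2% and 60.8% of Ezh2 KO cells held no Ezh2 UMI, against 53.5% and 53.9% of Control and 56.3% and 54.9% of Jarid2 KO cells. The variance over mean of the Ezh2 KO cells was 1.76 and 1.65, within the Control values of 1.94 and 1.62, with the same limit. Thinning left out 345 to 820 cells per library. Before thinning, 40.9% and 39.7% of transplant Ezh2 KO cells and 73.3% of Control cells held an Ezh2 UMI. The sort holds no cell type known to lack Ezh2, so no background share from free RNA was read.

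The genes whose levels most resembled each member over library by state sums were listed as a description, with no test, since the points share libraries, depth and states. Over 101 baseline sums and 9108 genes, Ezh2 lay closest to Tmpo, a nuclear lamina protein of the Cycling list (Pearson r of log2(CPM + 1) 0.904), then Hnrnpa3 and Supt16. Suz12 lay closest to Prim2, a primase subunit (0.895), Atad2 and then Ezh2 itself (0.887). Rbbp4 lay closest to Sae1 (0.954), Rbbp7 to Anp32b (0.925), Eed to Gabpb2 (0.821) and Ezh1 to the splicing kinase gene Clk1 (0.807). Between Ezh2 and Ezh1 the value was -0.165.

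Over 62 transplant sums and 8244 genes, Ezh2 lay closest to Xist (0.856) and its antisense partner Tsix (0.785). The Ezh2 KO libraries are the ones with almost no female cells, as given above. Ezh1 lay closest to Arid4b (0.871), Rbbp4 to the histone messenger RNA binding gene Slbp (0.864), Suz12 to the cohesin gene Smc3 (0.870), Rbbp7 to the histone chaperone gene Ssrp1 (0.818) and Eed to Ints1 (0.718). The value between Ezh2 and Ezh1 was 0.137 here, opposite in sign to baseline.

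Other genes of the pathway were read from lists of known subunits and enzymes. Of 10 accessory PRC2 subunits 8 were tested, and none was called between Ezh2 KO and Control in either experiment, where 3.00% and 4.55% of all genes were called. Their median was 0.04 at baseline and 0.11 after transplantation against -0.0028 and 0.01 over all genes. Epop, an accessory subunit that links PRC2 to elongin, read 14.4 CPM in transplant Control, 21.9 and 20.8 CPM in Ezh2 KO, and 8.91 and 12.1 CPM in Jarid2 KO. It was lower in Jarid2 KO than in Ezh2 KO by -1.0 (SE 0.13, edgeR adjusted p = 0.00545). Jarid2 itself was called higher in the libraries labelled Jarid2 KO than in Ezh2 KO in both experiments, by 0.59 and 0.42. It was the only 1 of the 8 called in that comparison at baseline, where 1097 of 18142 genes were called. After transplantation only Epop and Jarid2 were called among the 8, where 1861 of 15735 genes were.

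Of the 3 genes for enzymes of the H3K27 demethylase family, Kdm6a on the X chromosome was lower and Uty on the Y chromosome higher in transplant Ezh2 KO than in Control, by -0.61 (edgeR adjusted p = 0.0336) and 1.08 (edgeR adjusted p = 0.006935). Both moved with the sex of the cells given above, and the part of sex in these values was not tested. Kdm6b, which is autosomal, read 19.0 CPM in transplant Control and 17.2 and 18.5 CPM in Ezh2 KO.

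Of 21 genes from other complexes that hold Rbbp4 or Rbbp7, 1 was called between Ezh2 KO and Control after transplantation, where 4.55% of all genes were, and 0 at baseline, where 3.00% were, so neither count stands out from the background. That gene was Mta3, a subunit of the NuRD deacetylase complex, at 46.0 CPM in Control, 105 and 107 CPM in Ezh2 KO, and 62.5 and 76.8 CPM in Jarid2 KO. The Mta3 difference between Ezh2 KO and Control was 1.12 (SE 0.12, edgeR adjusted p = 0.00737), and the groups did not overlap. At baseline Mta3 read 112 and 88.0 CPM in Control and 122 and 92.4 CPM in Ezh2 KO, which overlapped. Between Jarid2 KO and Ezh2 KO, Sap30 was called at baseline (-0.26), and Smarca1 (-2.24) and Mta3 (-0.58) after transplantation, each lower in Jarid2 KO. These are 1 of 21 where 6.05% of genes were called and 2 of 21 where 11.8% were, so neither count stands out from the background. Smarca1 lay at or below 1.11 CPM in the transplant libraries, so its fold rests on few UMIs.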

How the data were processed

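Cells were read as UMI counts per gene and cell, deposited by the authors as raw counts. Cell Ranger 7.2.0 (baseline) and 6.1.2 (transplant) are named per the file headers, while the submitters' processing notes list Cell Ranger 3.1.0, Seurat 3.0, Partek and mm10 with no role. The sources used here name no further step.

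Kept cells had at least 1000 UMIs, 500 genes and at most 10% mitochondrial UMIs. Doublets were scored against simulated pairs and removed at 0.8% per 1000 barcodes (6.13% to 8.30% of cells). Control cells were clustered (2000 variable genes, 30 components, 15 neighbours, Leiden resolution 1.0) without the members, and a cluster was named only from markers. Clusters on a separate list were left unnamed whatever their markers. States entered with at least 20 cells per library. Antibody counts set the gates by centred log-ratio.

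Counts were summed per library and tested with edgeR 4.0.16 (TMM, quasi-likelihood test, Benjamini-Hochberg over all genes tested, 0.05), with sex as a term at baseline and the single transplant Control assumed to vary like the knockouts. Comparisons with Control share its libraries. At baseline same-sex libraries deviated together (correlation 0.255 to 0.366), so the sex term pairs them. The fits were also run on simulated counts, drawn with the spread estimated from these libraries. Such counts cannot check the assumption made for the single Control. DESeq2 1.42.0, other scalings and filters, and leaving out each library were tried. The rule for named genes took the 6 members, Jarid2, the called genes of the pathway lists and up to 3 of the most similar genes per member. Kdm6b and the marker genes Kit, Ly6a, Ptprc, Cd3e, Ly6g and Itgam were named beyond that rule, after their values were seen. The members and lists were chosen with earlier results of these data known. The planned protein comparison of the paralogs was not run, as no protein sequences were used here.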

Additional observations from a re-analysis of the deposited data

Results flagged for a closer look

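Each value below is a difference between 2 effects of the same comparison, and each passed edgeR's quasi-likelihood test of that difference. Every transplant effect against Control rests on a single Control library. For Ezh2, the Ezh2 KO effect after transplantation minus that at baseline was -1.84, and for Jarid2 KO against Ezh2 KO it was 1.78. The experiments also differ in Cell Ranger version and marker sums, as given above.

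Within baseline libraries, the Ezh2 KO effect on Ezh2 differed from that in HSC-like cells by -0.89 in B cell-like and -0.91 in Erythroid-like cells, and between the highest and lowest cell-cycle tercile by -0.45 (-0.52 with cuts fixed at the Control values, which passed). The tercile value was lost without either Control library or without the male Ezh2 KO library (-0.48 to -0.40, edgeR adjusted p 0.114 to 0.235). The B cell-like value passed with any 1 library left out (-0.98 to -0.79). The Erythroid-like value was lost without the female Control library (-0.70).

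Within transplant libraries, the effect on Ezh2 differed from that in HSC-like cells by -0.87 in Myeloid-like and -0.57 in Cycling-like cells, and the latter was lost without the second Ezh2 KO library (-0.40). The effect on Ezh1 differed by -0.62 between Cycling-like and HSC-like cells, lost without either Ezh2 KO library, and by -0.45 between the highest and lowest tercile, lost without the first Ezh2 KO library (-0.39). For Rbbp4 and Rbbp7 the tercile difference was 0.30 and 0.33, and for Rbbp7 the middle minus lowest tercile gave 0.21, which was lost with any 1 knockout library left out (0.16 to 0.20, edgeR adjusted p 0.0708 to 0.21). These tercile values rest on cuts made within each library, which differed between genotypes. With cuts fixed at the Control values none of the 4 passed: Ezh1 was -0.35, Rbbp4 0.15 and Rbbp7 0.15, and the Rbbp7 middle minus lowest tercile gave 0.0957 (edgeR adjusted p = 0.18, 0.21, 0.254 and 0.643).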

How the results depend on the processing

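The baseline Ezh2 difference between Ezh2 KO and Control missed the threshold as reported and passed it with DESeq2 (-0.34, adjusted p = 0.000517), library totals in place of TMM (-0.38) and no filter on low counts (-0.33). Leaving out each library gave -0.42 to -0.26, and it passed when either Jarid2 KO library was dropped (edgeR adjusted p = 0.0497 and 0.0477). It was -0.54 with the state mix held, and the transplant difference was then -1.98. The transplant Ezh1 difference reversed with the strict cell filter (-0.0187) and ran from -0.0418 to 0.15 with a library left out. Values near 0 reversed for Rbbp7 in Ezh2 KO at baseline with library totals (-0.0441), doublets kept (-0.00103) and only the groups compared (-0.00313), for Suz12 there with library totals (-0.00682), and for Eed in Jarid2 KO with DESeq2 (-0.00114) and library totals (-0.0186). After transplantation they reversed for Rbbp4 in Ezh2 KO with library totals (0.00111), for Eed in Jarid2 KO against Ezh2 KO with the strict filter (-0.00205), and for Ezh1 there with library totals (-0.0262), at least 10 CPM (-0.0165), doublets kept (-0.00042) and male cells only (-0.00537). The Suz12 difference between experiments reversed with DESeq2 (-0.000709). In each case the cause was not tested.

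With a library left out, signs also turned within these ranges: Rbbp7 in Ezh2 KO at baseline -0.025 to 0.0265; in Jarid2 KO at baseline Eed -0.0194 to 0.0229, Ezh2 -0.13 to 0.0646 and Suz12 -0.0889 to 0.0229; after transplantation Eed in Ezh2 KO -0.0167 to 0.0791, Ezh1 in Jarid2 KO -0.0385 to 0.17, and in Jarid2 KO against Ezh2 KO Ezh1 -0.10 to 0.11 and Rbbp7 -0.0836 to 0.0373. Between experiments they turned for Suz12 in Ezh2 KO (-0.0124 to 0.0277), for Ezh1 (-0.15 to 0.0212), Rbbp7 (-0.0047 to 0.0567) and Suz12 (-0.11 to 0.0575) in Jarid2 KO, and for Suz12 in Jarid2 KO against Ezh2 KO (-0.13 to 0.0385). Against the stem or HSC-like part, the Ezh2 term turned for Innate lymphoid-like cells (-0.46 to 0.0296), MPP2 (-0.24 to 0.0233) and MPP3 (-0.34 to 0.091).

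Without the replicate block (the sex term), the baseline calls for Rbbp4 (-0.26, edgeR adjusted p = 0.102) and Ezh1 (0.29, edgeR adjusted p = 0.144) in Jarid2 KO against Ezh2 KO were lost, and Ezh2 in Ezh2 KO was -0.34 (edgeR adjusted p = 0.138). Over all cells the block changed no other member's call. Within the baseline gates and terciles, 7 of the 8 calls in Jarid2 KO against Ezh2 KO were lost without it (edgeR adjusted p 0.0575 to 0.122), Ezh1 in MPP3 being the exception. It was not run for the other comparisons within states, gates or terciles. Transplant replicates share only a number: same-numbered deviations correlated at -0.136, and Ezh2 in Jarid2 KO against Ezh2 KO stayed called with the block (2.08) and with crossed numbers, an alternative chosen after seeing the data.

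Over the alternatives, called genes ranged from 28 to 1360 for Ezh2 KO, 1 to 237 for Jarid2 KO and 89 to 1611 for Jarid2 KO against Ezh2 KO at baseline. After transplantation they ranged from 157 to 1175, 7 to 214 and 425 to 2476, and between experiments from 15 to 251, 0 to 44 and 139 to 905. For Jarid2 KO against Control no gene was called between experiments by edgeR (948 at an unadjusted p under 0.05). With 1 transplant Control library, small differences were not detectable.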
